A study of Mus musculus with 8 samples.

Results

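The Peg3 imprinted domain is a stretch of mouse chromosome 7 whose imprinted genes share a control region. The part taken here holds 3 protein-coding genes listed by RefSeq. It was examined for DNA methylation in muscle stem cells of old and young mice. Its members were taken as all listed cytosine positions from 10 kb before Zim1, across Peg3, to 10 kb after Usp29, at chr7:6664444-6977220 of mm10 (312.8 kb), without regard to their levels. That gave 4684 of the 33108039 positions in the deposited table. The rule also named Zfp264, but no gene of that name is in the RefSeq gene table used (3 of 4 named genes were found), so its span was not placed and it was not analysed here.

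Bisulfite sequencing of the whole genome, in which an unmethylated cytosine is read as thymine, was run on muscle stem cells sorted from the limb muscles of male C57BL/6 mice as CD45-, CD31-, Sca1- and VCAM+ and used directly, while quiescent. There were 4 old mice (22 months) and 4 young mice (4 months), all of the same strain and sex and otherwise untreated as far as the labels say, with the cells of 1 animal in each library. The table gives 1 level, 1 dispersion and 1 comparison of old with young per position, so every level below is the authors' mean for an age group and has no SD. Depth per position is unknown, and the labels state 115000000 to 200000000 reads per library. Expression was not measured, so the cell type could be checked only at gene ends. Within 1 kb of their less methylated ends, the stem cell genes Pax7, Myf5, Myod1 and Vcam1 stood at 4.19 to 10.5% in old and 3.88 to 12.03% in young cells, and the blood genes Ptprc and Cd3e at 49.8 to 68.6% in old and 49.96 to 67.05% in young cells. Of the endothelial genes, Pecam1 (CD31) and Cdh5 stood at 72.9 and 54.2% in old and 72.5 and 52.0% in young cells, but Tek at 15.9% in old and 13.9% in young cells. Of the genes of fibro-adipogenic cells, Ly6a (Sca1) stood at 51.7% in old and 46.4% in young cells, and Pdgfra at 11.4% and 11.6%. A low level at a gene end does not show that the gene is expressed, and the part of other cells in the results was not tested.

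Imprinted genes are read from the copy of a single parent. In the mouse Peg3 domain the copy from the mother carries methylation, set in the egg, over the start that Peg3 and Usp29 share, and the unmethylated copy from the father is transcribed in both directions. A region methylated on a single parental copy reads as an intermediate level, because bisulfite reads from an inbred strain do not tell the copies apart. Peg3, also called Pw1, encodes a large zinc finger protein known from muscle stem cells and other progenitor cells of muscle. Usp29 encodes a protein of the ubiquitin-specific protease family, and Zim1 a zinc finger protein that in the mouse is transcribed mainly from the copy of the mother.

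The promoters of Peg3 and Zim1 are shown because they hold the contrast in the domain: Peg3 has an intermediate level in both ages and Zim1 an almost unmethylated start. Both sequences are from RefSeq (GRCm38.p6) and run from 250 bases before to 50 after the gene's start, with each CpG in capitals. Peg3 is at chr7:6730370-6730669 and Zim1 at chr7:6696383-6696682, both on the minus strand.
Peg3: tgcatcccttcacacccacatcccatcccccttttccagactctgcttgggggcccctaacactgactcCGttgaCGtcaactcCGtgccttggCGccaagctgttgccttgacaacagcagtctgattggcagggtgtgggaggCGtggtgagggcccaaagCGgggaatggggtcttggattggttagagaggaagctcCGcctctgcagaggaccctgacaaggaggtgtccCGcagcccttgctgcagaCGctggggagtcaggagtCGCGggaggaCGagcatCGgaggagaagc
Zim1: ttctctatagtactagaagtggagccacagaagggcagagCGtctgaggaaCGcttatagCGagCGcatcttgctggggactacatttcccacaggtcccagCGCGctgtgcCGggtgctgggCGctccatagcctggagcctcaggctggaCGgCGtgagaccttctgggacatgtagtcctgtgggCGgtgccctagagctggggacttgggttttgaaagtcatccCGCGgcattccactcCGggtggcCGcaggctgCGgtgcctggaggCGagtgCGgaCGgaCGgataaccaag
The Peg3 sequence holds 13 CpGs and the Zim1 sequence 20. The listed positions in the Peg3 window averaged 51.8% in old and 42.6% in young cells, with ranges of 51.2 to 52.4% and 41.3 to 43.5%. These ranges are over positions that share or nearly share their levels, not over animals. The smallest p in the window was 0.0518 in the authors' deposited table. Listed positions in the Zim1 window averaged 3.67% in old and 3.37% in young cells, and no position in either age was above 4.42%. Usp29 starts 164 bp away on the plus strand, and its own window, which overlaps that of Peg3, stood at 51.7% in old and 42.8% in young cells. The motif GCCAT is the core of the site of YY1, a factor known to bind the Peg3 control region in the mouse. It was searched on both strands and is not in any of the 3 windows, while 40.5% of the 32851 promoters in the table hold it. The rest of the control region, past these windows, was not searched, so its YY1 sites were not examined.

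The domain as a whole was close to the genome in its level. Its positions averaged 69.0% in old and 68.1% in young cells, a difference of 0.904 percentage points, beside 64.6% in old and 64.1% in young cells over chromosomes 1 to 19 and X. The Peg3 span stood at 69.9% in old and 68.2% in young cells (1.71 points), the Usp29 span at 69.5% and 68.7% (0.819 points) and the Zim1 span at 64.5% and 63.8% (0.718 points). These lie within the central 90% of the differences of 20483 protein-coding gene spans, from -1.26 to 2.15 points with a median of 0.389 points. With each 500-bp step given equal weight the Zim1 difference was -0.0679 points. Sequence between Zim1 and Peg3, past the 2 steps at the Zim1 start, stood at 68.5% in old and 69.3% in young cells over 69 positions. The flanks of 10 kb stood at 77.8% in old and 75.5% in young cells beside Zim1, and at 73.1% and 73.95% beside Usp29.

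**Figure D1:**
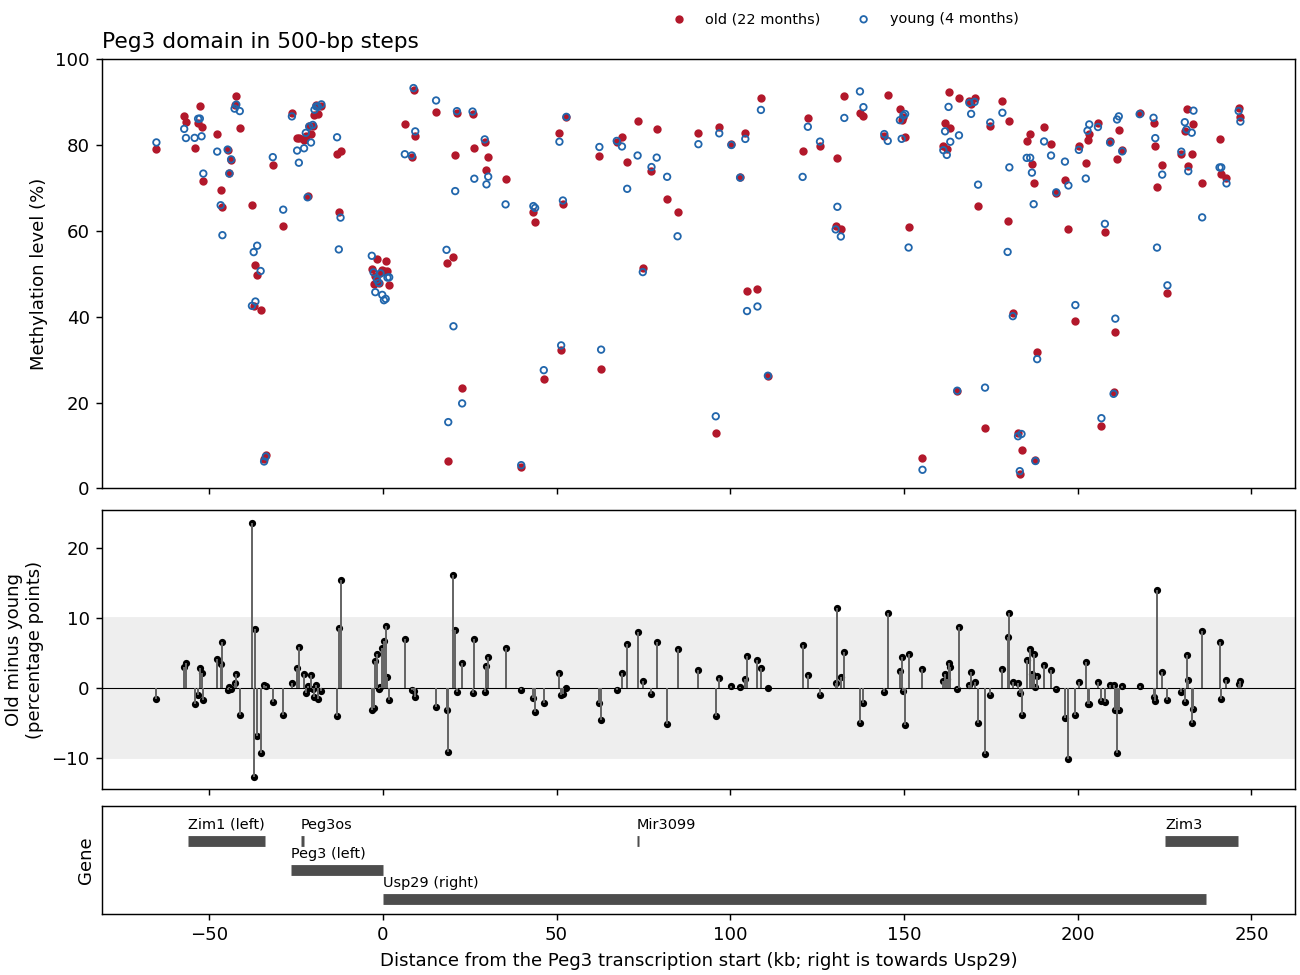
The upper panel plots the methylation level (%) of each 500-bp step with at least 10 positions against its distance from the Peg3 start (kb), old cells filled and young cells open; the middle panel plots old minus young (percentage points), with a grey band to 10 points on each side of 0; bars in the lower panel are genes. Most steps lie above 70% in both ages, a tight group of 11 steps sits near 50% at distance 0, and the tallest bar, 23.6 points, is in Zim1.

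Cut into 500-bp steps, the domain was mostly methylated, with 2 long intermediate stretches. Of 551 steps 179 had at least 10 positions. Among these 113 were above 70% (mean of both ages), 49 were between 30 and 70%, and 17 were below 30%. The share of intermediate steps was 27.4%, beside 28.3% over all steps of chromosomes 1 to 19 and X. A run of at least 3 neighbouring intermediate steps occurred at the shared start of Peg3 and Usp29 and in the first part of Zim1.

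The stretch at the shared start, at chr7:6727001-6732500, was intermediate in both ages and even along its length. It stood at 50.3% in old and 47.4% in young cells over 314 positions, a difference of 2.92 points. Its 11 steps ranged from 47.5 to 53.5% in old and from 43.8 to 54.2% in young cells, with an SD over steps of 2.03 points in old and 3.11 points in young cells. Over the 2 kb before it, inside Peg3, the level was 74.8% in old and 73.6% in young cells. On the other side 5 more positions in the next 500 bp stood at 53.5% in old and 49.7% in young cells, and beyond them, inside Usp29, 15 positions stood at 71.9% and 75.2%. The stretch therefore lies between methylated flanks and crosses the starts of both genes.

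Old cells were higher around the gene starts, and the rest of this stretch held smaller differences of both signs. The 170 positions on the Peg3 side, up to 6730000, averaged 49.7% in old and 49.2% in young cells. Within them, 60 neighbouring positions from 6727956 were higher in old (51.5% in old and 47.4% in young cells) and 30 from 6727344 were lower (48.9% and 52.5%). From 6730001 to 6731500, which holds both gene starts, 120 positions stood at 51.4% in old and 44.6% in young cells, and 118 of them were higher in old. The last 24 positions stood at 49.4% and 49.2%. The step that holds the Peg3 start was at 50.9% in old and 45.1% in young cells, the step with the Usp29 start at 50.7% and 43.8%, and the next at 53.1% and 44.2%. An unbroken block of 124 positions, at chr7:6730063-6731776, was higher in old at every position, with 51.4% in old and 44.4% in young cells. These bounds were chosen after the values were seen. By the authors' deposited table, 0 of the 314 positions had a p under 0.05, and the smallest was 0.0518. Neighbouring levels share or nearly share their values, so the block is not 124 separate measurements, and the spread between animals is not known.

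**Figure D2:**
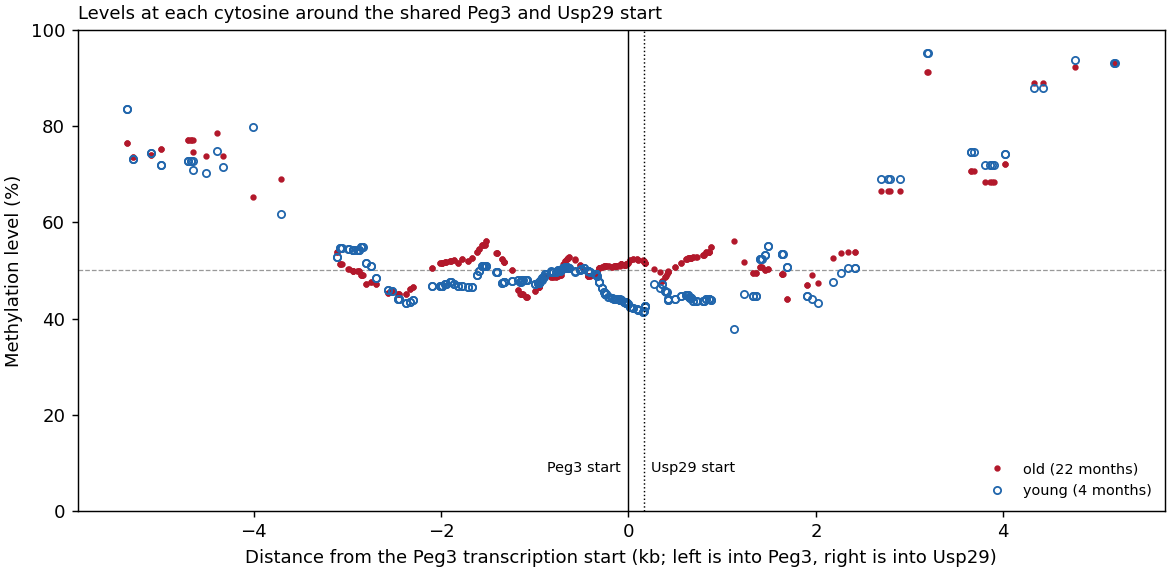
Methylation level (%) of each listed cytosine against its distance from the Peg3 start (kb), with old cells as filled and young cells as open points and the starts of Peg3 and Usp29 as vertical lines. Both ages run near 50% over the stretch of 11 steps and higher in the 2 kb inside Peg3 (74.8% in old and 73.6% in young cells); the points of old cells lie above those of young cells from just before the Peg3 start into Usp29 (51.4% and 44.6%).

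Among steps with at least 10 positions, the widest difference in each direction was in Zim1, and these were neighbours. The gene's start was almost unmethylated, at 7.20% in old and 6.80% in young cells over 64 positions in 2 steps. From there into the gene, over chr7:6692501-6696000, 89 positions averaged 50.2% in old and 49.01% in young cells, a difference of 1.23 points. Further in, the remaining 297 positions of the gene stood at 76.4% in old and 75.8% in young cells. The inner bound of the intermediate part was set by the minimum of 10 positions per step. Next to it, 7 positions in the step at 6692001 stood at 43.4% in old and 56.8% in young cells (-13.4 points). The step after that, at 6691501, had 6 positions at 50.3% in old and 53.5% in young cells.

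The near equality of the means over that intermediate part came from differences of opposite sign. Seen from the start of the gene inwards, 7 positions were slightly higher in old (44.6% in old and 43.2% in young cells), then 33 positions were lower in old (44.5% and 53.7%), and 12 were higher (53.2% and 42.4%). Deeper still, 15 positions were lower in old (41.4% and 55.4%), and the innermost 22 of this part were higher (65.1% and 43.2%). Thus the 89 positions fall into 5 neighbouring segments that alternate in sign, between 204 and 1418 bp long. A step nearer the start, at 6695001, stood at 41.5% in old and 50.7% in young cells. The step of these 22, at chr7:6692501-6693000, stood at 66.1% in old and 42.5% in young cells (23.6 points, 20 of 20 positions higher in old). The next step, at chr7:6693001-6693500, stood at 42.4% and 55.1% (-12.6 points, 2 of 15 positions higher).

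Single positions of this part had small p-values without passing the FDR. In the 4 steps of the stretch, from 6692501 to 6694500, 33 of 63 positions had a p under 0.05 in the authors' deposited table, beside 2.62% of all positions, and 27 had a p under 0.01. Neighbouring levels share values, so these are not separate tests. The 2.62% covers positions of all levels and the stretch only intermediate steps, so the shares are not like for like. A run of 17 positions (10 CpGs) with a p under 0.01 each, at chr7:6692787-6692945 and 3487 bp inside the gene, was the only run of at least 10 such positions in the domain. Outside the domain, neither such runs nor positions with a p under 0.01 were counted, so how common they are is not known. The smallest FDR in the run was 0.115, and the smallest in the stretch was 0.0512, at 6692673, in the authors' deposited table. With 2 times the median p of a step, the inner step gave 0.00625 and the next 0.0239 before adjustment; both had an adjusted p of 1 (Benjamini-Hochberg over all steps).

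**Figure D3:**
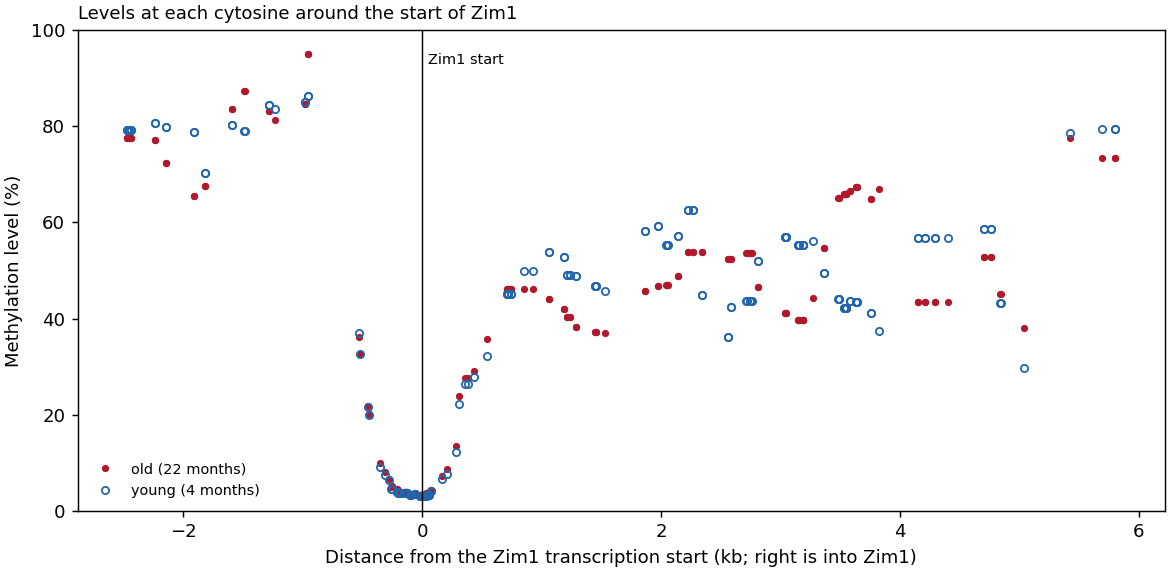
Methylation level (%) of each listed cytosine against its distance from the Zim1 start (kb, positive into the gene), old cells filled and young cells open. Both ages fall below 5% at the start; from 0.5 to 4 kb inside the gene the points of the ages cross several times, with the widest gap near 3.5 kb (65.1% in old and 43.2% in young cells).

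The body of Peg3 was mostly highly methylated, and its mean was similar between the ages. Before the stretch at its start, 446 positions stood at 80.1% in old and 78.5% in young cells. A low spot lay at chr7:6714001-6715500, in steps with fewer than 10 positions. Its step with the most positions, 5, stood at 24.9% in old and 16.8% in young cells (8.16 points). Peg3os, an RNA antisense to Peg3 that lies inside the gene, stood at 79.5% in old and 77.3% in young cells over 12 positions. The far end of Peg3 was at 87.5% in old and 86.7% in young cells within 1 kb. The widest step difference inside Peg3 was at chr7:6718001-6718500, 12.2 kb from the start, where 10 positions stood at 78.6% in old and 63.1% in young cells (15.5 points, adjusted p 1 from 2 times the median p).

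Usp29 is the longest gene of the domain, at 236.7 kb, and its body mixed high levels with short unmethylated spots. Beyond the shared stretch 3189 positions stood at 69.97% in old and 69.3% in young cells. Of the 12 steps under 20% in the domain with at least 10 positions, 2 were at the Zim1 start and 10 were inside Usp29. The lowest was 183.3 kb from the Peg3 start, at chr7:6913501-6914000, with 3.39% in old and 4.03% in young cells over 36 positions, and its neighbours on both sides were under 20% as well. A step 39.8 kb from the Peg3 start stood at 5.10% in old and 5.42% in young cells. A further low step, at chr7:6749001-6749500, stood at 6.36% in old and 15.5% in young cells (-9.10 points), and 1 kb further on, at chr7:6750501-6751000, the level was 53.9% in old and 37.8% in young cells (16.1 points). The 5 steps of the domain with the largest difference in each direction, of those with at least 10 positions, included others of Usp29. Higher in old were those at 6953001 (70.2% in old and 56.1% in young cells) and at 6861001 (77.1% and 65.6%). Those lower in old were at 6927501 (60.5% and 70.6%), at 6903501 (14.1% and 23.5%) and at 6941501 (76.7% and 85.95%).

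Other RefSeq genes in the domain were mostly methylated. Mir3099, a microRNA gene inside Usp29, stood at 85.3% in old and 75.3% in young cells within 1 kb of its end (20 positions, 9.99 points). Gm51257, a pseudogene inside Usp29, stood at 89.3% in old and 91.6% in young cells. Zim3, listed as a non-coding RNA gene that overlaps the end of Usp29, stood at 74.4% in old and 74.9% in young cells over its span, and at 39.3% and 44.97% around its lower end.

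Few positions passed the authors' test, and all but 3 stood alone. By the authors' deposited table, 9 of the 4684 positions had an FDR under 0.05, which is 0.192%, beside 0.237% of all positions; 3 were higher and 6 lower in old. At an FDR under 0.1 there were 11, beside 0.298% of all positions in the authors' deposited table. The higher ones were at 6679568 in Zim1 (92.7% in old and 86.6% in young cells), 6718429 in Peg3 (84.2% and 64.4%) and 6758622 in Usp29 (93.4% and 87.5%). Lower in old were 6858354 (81.2% and 94.6%), 6866944 (61.97% and 78.4%) and 6946124 (50.8% and 68.05%), all in Usp29, and 3 neighbouring positions in Zim3 from 6972496 to 6972603 (57.6% and 84.4%). The cytosine on the opposite strand of the same CpG was listed for all 9 and had an FDR of 0.747 or 1 in the authors' deposited table. At the position with the smallest p, 6866944, p was 1.32e-22 and that of its partner was 0.0933 in the authors' deposited table. Of the 9 positions, 7 carried the most common dispersion value of an age group, as did 24.0% of all positions in the domain.

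No 500-bp step of the domain passed when adjusted over the genome, and the 9 that differed by at least 10 points lay in Zim1, Peg3 and Usp29. A step was tested by its median p in the authors' deposited table times 2, adjusted by Benjamini-Hochberg, and 0 of 179 steps fell under 0.05, beside 8.23e-05% of 1214880 steps. Before adjustment 2 steps (1.12%) were under 0.05, both in Zim1, beside 0.137% of all steps. Steps at least 10 points higher in old numbered 7 (3.91%), beside 1.28% of all steps, and those at least 10 points lower numbered 2 (1.12%), beside 0.872%. Among the 49 intermediate steps, 3 were at least 10 points higher in old and 2 lower, beside 2.59% and 1.96% of all intermediate steps. With other step settings the counts over all steps of the domain ranged from 1 to 16 higher and from 0 to 12 lower. The median step difference was 0.506 points in the domain and 0.374 points over all steps, and 78.2% of the domain's steps differed by less than 5 points, beside 83.3% of all steps. These shares describe the group means and are not tests against the spread between animals.

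**Figure D4:**
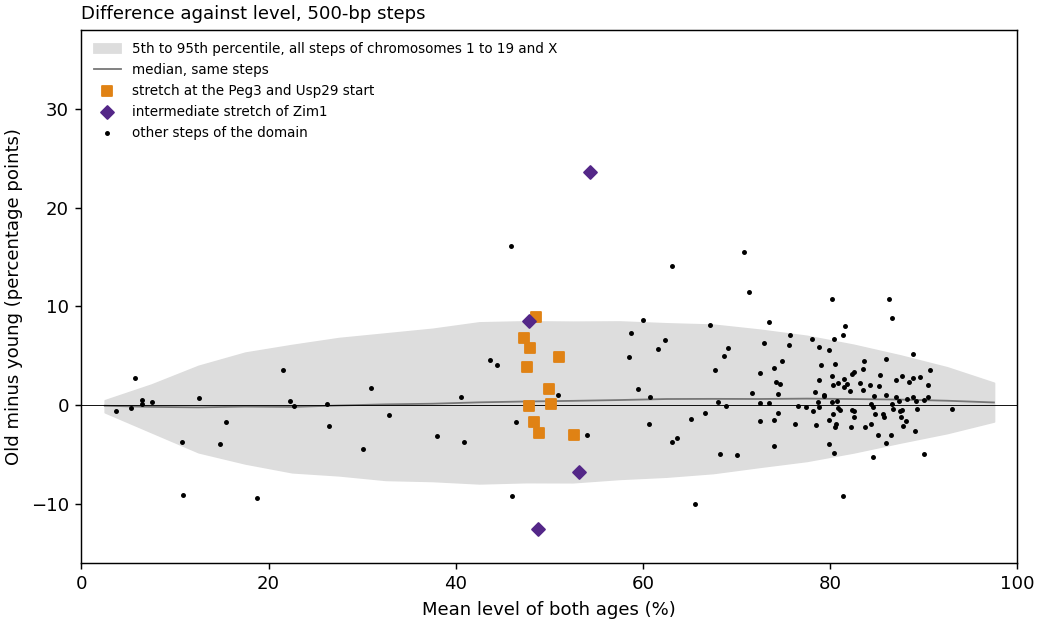
Old minus young (percentage points) of each 500-bp step of the domain against its mean level over both ages (%), with the 5th to 95th percentile of all steps of chromosomes 1 to 19 and X in grey. The steps at the Peg3 and Usp29 start range from -3.06 to 8.91 points, and in Zim1 a step at 23.6 and another at -12.6 points lie outside the grey band, as do several other steps.

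Dispersion at the shared start was similar in the ages. The authors' dispersion, a number between 0 and 1 per position and age, had a median of 0.0417 in old and 0.0421 in young cells in the stretch, beside 0.0434 and 0.0438 in the whole domain and in the whole table. By step it ranged from 0.0379 to 0.0434 in old and from 0.0389 to 0.0463 in young cells. Dispersion above 0.1 was found at 2 of its 314 positions in old and at 0 in young cells. Over the domain such positions made up 2.63% in old and 2.13% in young cells, beside 2.78% and 2.32% in the whole table, and in Usp29, which holds 69.7% of the domain's positions, 3.12% in old and 2.45% in young cells. In Zim1 there were 2 such positions in old and 10 in young cells (0.471% and 2.35%). The highest values in both ages were in Usp29, with 0.99 in old and 0.423 in young cells at 6838324, and 0.75 in old and 0.844 in young cells at 6861857.

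The stretch at the Peg3 start was set beside intermediate stretches of other imprinted genes. For each of 14 imprinted genes chosen for comparison, the longest run of intermediate steps within 10 kb of the gene was taken; Peg10 and Sgce share theirs. Those stretches stood between 44.1 and 69.2% in old and between 44.99 and 60.2% in young cells. Old minus young ranged from -3.64 points at Snrpn and Plagl1 to 8.98 points in Rasgrf1, and 11 of the 13 distinct stretches were higher in old, with a median of 1.44 points. The Rasgrf1 stretch lies inside the gene, at chr9:89918501-89920500, and the next highest difference was 5.19 points in Inpp5f. Whether each stretch is the imprinted region of its gene was not tested. Over all intermediate steps of chromosomes 1 to 19 and X the median was 0.47 points, and 54.4% were higher in old. These are single 500-bp steps, whereas each stretch is an average over a run of steps, so the shares are not like for like. The 2.92 points of the Peg3 start lie inside the range of those stretches. Its levels of 50.3% in old and 47.4% in young cells do as well. Every stretch was chosen from steps between 30 and 70%, so a similar level follows in part from that choice. At the paired start of Peg10 and Sgce, another pair of neighbouring imprinted genes, old cells were at 48.2% and young cells at 46.3%. In Inpp5f the stretch stood at 55.9% in old and 50.7% in young cells, and at H19 at 48.5% and 48.1%. No test was made between the Peg3 start and these genes.

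**Figure D5:**
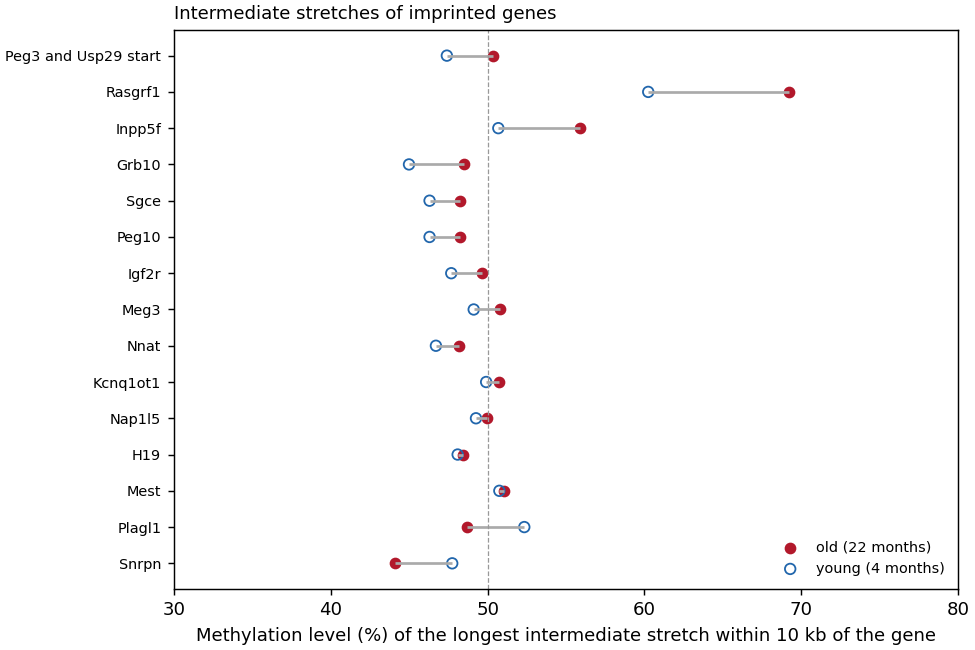
Methylation level (%) of the longest run of intermediate 500-bp steps within 10 kb of each imprinted gene, old cells filled and young cells open. The Peg3 and Usp29 start, at 50.3% in old and 47.4% in young cells, lies among the others. All stretches were chosen from steps between 30 and 70%. The gap is widest at Rasgrf1 (69.2% and 60.2%), in a stretch inside the gene.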

How the data were processed

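The deposited table covers muscle stem cells of 4 old and 4 young mice, grouped by their labelled ages. The submitters' processing notes name the builds mm10 and GRCm38 and, as tools, edgeR, Bismark and Trim Galore, with versions and roles not given in the sources used here. Per the file headers, the authors give for each age a level (mu, a fraction from 0 to 1, printed here as a percent) and a dispersion (phi, a score that no source used here defines). The deposited p-value and FDR compare old with young at each position. Levels repeat over neighbouring positions, as smoothed values do, so neighbours are not independent; how they were made is not stated in the labels. Values per animal and read counts were not used here, so depth is unknown and no SD could be given.

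The table counts positions from 0: in RefSeq promoters (GRCm38.p6) 100% of 774634 listed positions fall on a CpG after adding 1, and 55.3% as printed. Positions here therefore count from 1. Levels were averaged over positions with equal weight, in steps of 500 bp with at least 10 positions. A step's p was its median deposited p times 2, adjusted by Benjamini-Hochberg over all such steps of chromosomes 1 to 19 and X and a threshold of 0.05; this was tested on simulated data, where it found large shifts when the error was small and missed most when it was larger, so a lack of calls says little. The authors' p enters as it is.

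The members, gene lists and rules were chosen with earlier results of these data known. Steps named were the 5 with the largest difference in each direction, those at gene ends, runs of at least 3 steps between 30 and 70%, and positions with an FDR under 0.05; low steps, segments and parts of the shared start were chosen after their values were seen. Alternatives were shifted and 1000-bp steps, other minimums of positions, weights per CpG or step, other margins and bounds, and leaving out the most common dispersion values (0.0434 in old, 0.0438 in young). Python 3.11.15, numpy 2.4.6 and pandas 2.3.3 were used.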

Additional observations from a re-analysis of the deposited data

How the results depend on the processing

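No step of the domain passed under any alternative run (0 at an adjusted p under 0.05 with shifted, 1000-bp, sparser, denser or trimmed steps). Over all steps, 1 of 1214564 passed with shifted steps, 1 of 1231304 with 1000-bp steps and 5 of 2329500 with at least 5 positions. With at least 20 positions 0 of 287349 passed, and without the most common dispersion 1 of 752497. Almost no step passed anywhere, so the 0 in the domain says little about the domain. Against 7 steps at least 10 points higher and 2 lower in old, there were 4 and 1 with steps shifted by 250 bp, 16 and 12 with at least 5 positions per step, 1 and 0 with at least 20, and 3 and 1 once positions at the most common dispersion were left out. With each CpG weighted equally there were 9 and 4, and with 1000-bp steps 5 and 2. The share of steps higher by at least 10 points was 2.30% in the domain and 1.30% of all steps with shifted steps, and 4.46% and 3.23% with at least 5 positions. It was 2.33% and 0.303% with at least 20 positions, 2.56% and 1.29% with 1000-bp steps, and 2.59% and 0.631% without the most common dispersion. For steps lower by at least 10 points it was 0.575% in the domain and 0.879% of all steps with shifted steps, and 0 and 0.194% with at least 20 positions. There this share fell below that of all steps. It was above with at least 5 positions (3.34% and 2.34%) and with 1000-bp steps (1.03% and 0.837%). Without the most common dispersion it was above as well (0.862% and 0.420%). Weights per CpG were run in the domain alone. The shared start differed by 2.71 to 2.99 points, the whole domain by 0.773 to 0.945, Peg3 by 1.43 to 2.55 and Usp29 by 0.788 to 0.868. Zim1 differed by -0.0679 to 0.919 points and so changed sign when each step was weighted equally, which gives sparse steps more weight. Moves were called small against the SD over steps, which is no replicate error. All 10 named steps kept their direction under both alternatives run on them and moved by at most 2.27 points. Levels repeat over neighbouring positions and strands, so these alternatives could move a step's mean only a little. The kept directions therefore say little about the steps, which were named for their large differences. With shifted steps the largest difference in the domain was 17.1 points, against 23.6. No paired analysis was possible because the table holds no values per animal, and leaving out each animal in turn was not run for the same reason. Depth limits could not be set, since read counts were not used here.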

Other observations

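Of 2158 CpGs in the domain with both strands listed, 95.9% carried equal levels on the strands in each age group, to the 4 decimals of the deposited fractions, and 98.8% were within 1 percentage point. The p-values of the strands differed all the same. At the Zim3 positions from 6972496 to 6972603, with 57.6% in old and 84.4% in young cells on both strands, the authors' deposited table has a p of 1.42e-05 at 6972496 and 0.042 at its partner, and 6.68e-06 at 6972603 and 0.00612 at its partner. The nearest listed position below this group, 6972102, stood at 67.8% in old and 73.7% in young cells, and the nearest above, 6972979, at 71.1% in old and 71.6% in young cells.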
